A study of Saccharomyces cerevisiae with 9 samples.

Results

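The leaders described here are the 5′ untranslated stretches of yeast genes that make amino acids. They were chosen by name from a synthetic pool of Saccharomyces cerevisiae leaders, as the wild-type RNAs whose gene is among 40 listed Watson-strand genes of amino acid biosynthesis. Of the 40 genes, 39 were present, with 75 of the 4384 wild-type RNAs in the table. The absent gene was ILV2 (YMR108W), the acetolactate synthase gene. All 39 locus names matched a symbol in the RefSeq gene table, and each symbol is that of an enzyme of amino acid synthesis or interconversion.

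By the labels the pool was probed with dimethyl sulphate (DMS), which methylates unpaired A and C, in 9 libraries of 3 groups with 3 replicates each. All groups used T7 transcripts of the synthetic pool and a denaturation at 95 °C for 2 min. In one group the RNA was then refolded and incubated with DMS at 30 °C for 2 min, in another it was treated with DMS while denatured, and in the last the refolded RNA had the same incubation but no DMS. The labels name no protein or cell extract in any group. The 6 columns of coverage and mutation values are headed by replicate alone, and 3 libraries of unlike treatment share each number. They were therefore left unused, and DMS reactivity, depth and replicate error are not analysed here. Every value below is a property of a pool sequence or a structure predicted from it, with no replicate error, and the members are described without a test.

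Amino acid biosynthesis in yeast is under general control: uncharged tRNA activates the kinase Gcn2, translation of the activator Gcn4 goes up, and Gcn4 raises transcription of biosynthetic genes of many pathways. The sulfur pathway has its own activator, Met4, and the leucine pathway has Leu3. A ribosome that scans a leader favours a start codon with A, and next G, at the third base before it, and stable structure or an upstream AUG in the leader can lower initiation.

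Start codon contexts of the amino acid genes are shown first, because the base 3 nt before the start codon is the known context feature in yeast. Each window runs from 21 nt before the start codon to 6 nt after it, in the DNA letters of the table, with the base 3 nt before the start codon and the start codon in capitals. GLN1 (glutamine synthetase), TRP2 (anthranilate synthase) and SER2 (phosphoserine phosphatase) have runs of A before the start codon. MET10 (a sulfite reductase subunit) and LEU9 (an isopropylmalate synthase) have G at this base. LEU2 (isopropylmalate dehydrogenase) and THR4 (threonine synthase) have C.
GLN1: tataatataatataatcaAaaATGgctgaa
TRP2: tgattggaaaaaaggcaaAaaATGaccgct
SER2: taagcacgacagctgtaaAaaATGtcaaag
MET10: gtcacccaaatatacaacGagATGccagtt
LEU9: ttatcatttagccgcgtaGccATGgtaaaa
LEU2: tttcaaggatataccattCtaATGtctgcc
THR4: cggccaccatccctcacaCcaATGcctaac

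Of the 39 amino acid genes, 29 had A at position −3, counted back from the start codon (74.4%, 95% Wilson interval 58.9 to 85.4), against 1372 of 2234 other genes (61.4%, 59.4 to 63.4). Over all 2273 genes whose leaders reached 10 nt, A was found in 61.6%. G was found in 8 of the 39 genes (20.5%) and in 19.3% of all genes, and C in 2 (5.13%) and 7.83%. None of the 39 genes had U there (0%, 0 to 8.97), against 255 of the 2234 other genes (11.4%, 10.2 to 12.8) and 11.2% of all genes. A purine was therefore present in 37 of 39 genes (94.9%, 83.1 to 98.6), against 80.7% of the other genes (79.0 to 82.3) and 81% of all. The intervals treat genes as independent and cover counting error alone. The share of A at the next base upstream was 53.8% in amino acid genes and 42.3% in the others, and at the base just before the start codon 35.9% and 43.3%. At 11 and 7 nt before the start codon the amino acid genes had A in 25.6% and 28.2%, below the 41.4% and 38.7% of the other genes.

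**Figure D1:**
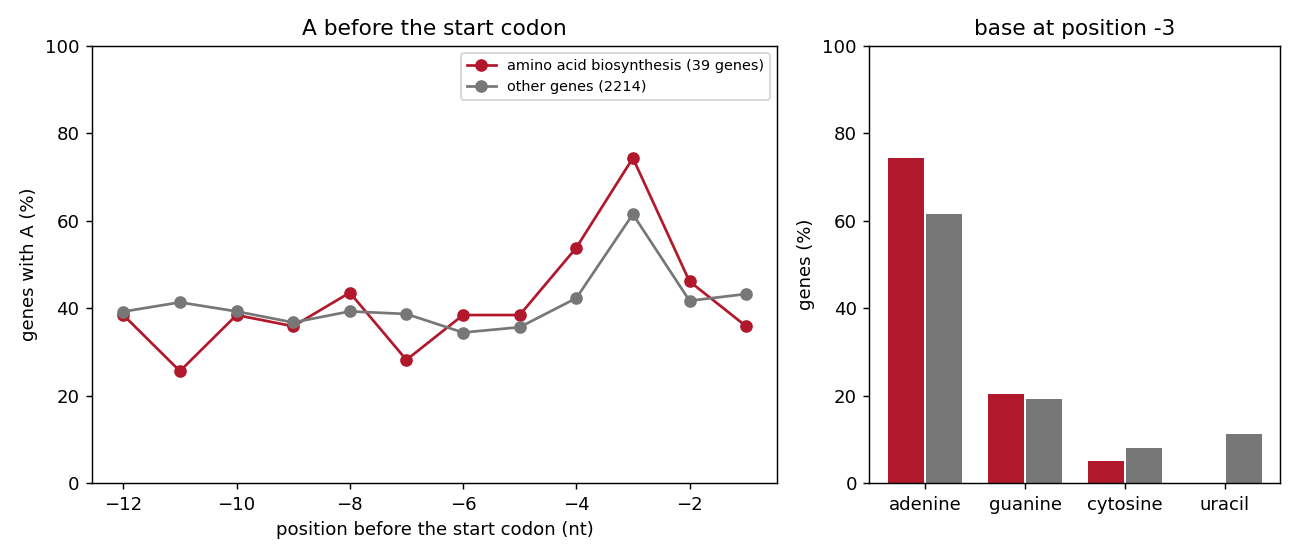
Left, the share of genes with A (percent) at each of the 12 positions before the start codon, in the longest leader of each of 39 amino acid biosynthesis genes (red) and 2214 other genes whose leader reached 12 nt (grey). Right, the share of genes with each base 3 nt before the start codon, in the same colours. A peaks at this position in both sets, and the red bar for U is empty, at 0%.

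The 8 genes with G 3 nt before the start codon were spread over several pathways. Branched-chain synthesis held 3 of them, ILV1 (threonine deaminase), LEU9 and BAT2 (the cytosolic branched-chain aminotransferase), and LEU2 of this pathway had C, so that BAT1 (the mitochondrial aminotransferase) was the 1 of 5 genes present with A. MET2 (homoserine acetyltransferase) and MET10 had G among the 6 sulfur genes. The remaining G genes were PRO3 (the last enzyme of proline synthesis), SER3 (phosphoglycerate dehydrogenase) and ARO2 (chorismate synthase). All 5 arginine genes, all 3 lysine genes, all 3 tryptophan genes, both histidine genes and all 4 genes of asparagine, glutamine and glutamate synthesis had A.

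Leader lengths of the amino acid genes were close to those of other genes. Leaders shorter than 10 nt were left out of all averages: 1 each of ARG8 (6 nt), HIS3 (9 nt) and TRP1 (9 nt), genes that each have a longer leader as well. The 72 leaders kept gave a median length per gene of 44 nt, with quartiles of 34 and 63.2 nt, against 42 nt in the 2234 other genes, with quartiles of 28 and 63.5 nt. With leaders of at least 20 nt alone this order turned, to 44 nt against 46.8 nt. Of the 39 genes, 22 lay above the median of all genes.

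By pathway, sulfur and arginine genes had the longest median leaders and the proline gene and the lysine genes the shortest. The median over the 6 sulfur genes was 68.2 nt and ran from 40 nt in MET17 (O-acetylhomoserine sulfhydrylase) to 85.5 nt in MET10. The 5 arginine genes had a median of 60 nt, from 21 nt in ARG3 (ornithine carbamoyltransferase, YJL088W), the shortest gene average of all 39, to 71 nt in ARG1 (argininosuccinate synthetase). The 3 lysine genes had a median of 35 nt and both the 2 histidine genes and the 3 genes leading from aspartate to threonine 36.5 nt. The longest average was that of GLN1 (YPR035W), with 1 leader of 116 nt, at percentile 99.1 of all genes. Next to it in the same pathway ASN2 (asparagine synthetase, YGR124W) had 1 leader of 27 nt. Pathways hold 1 to 6 genes, so these medians describe the listed genes and not the pathways as classes.

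**Figure D2:**
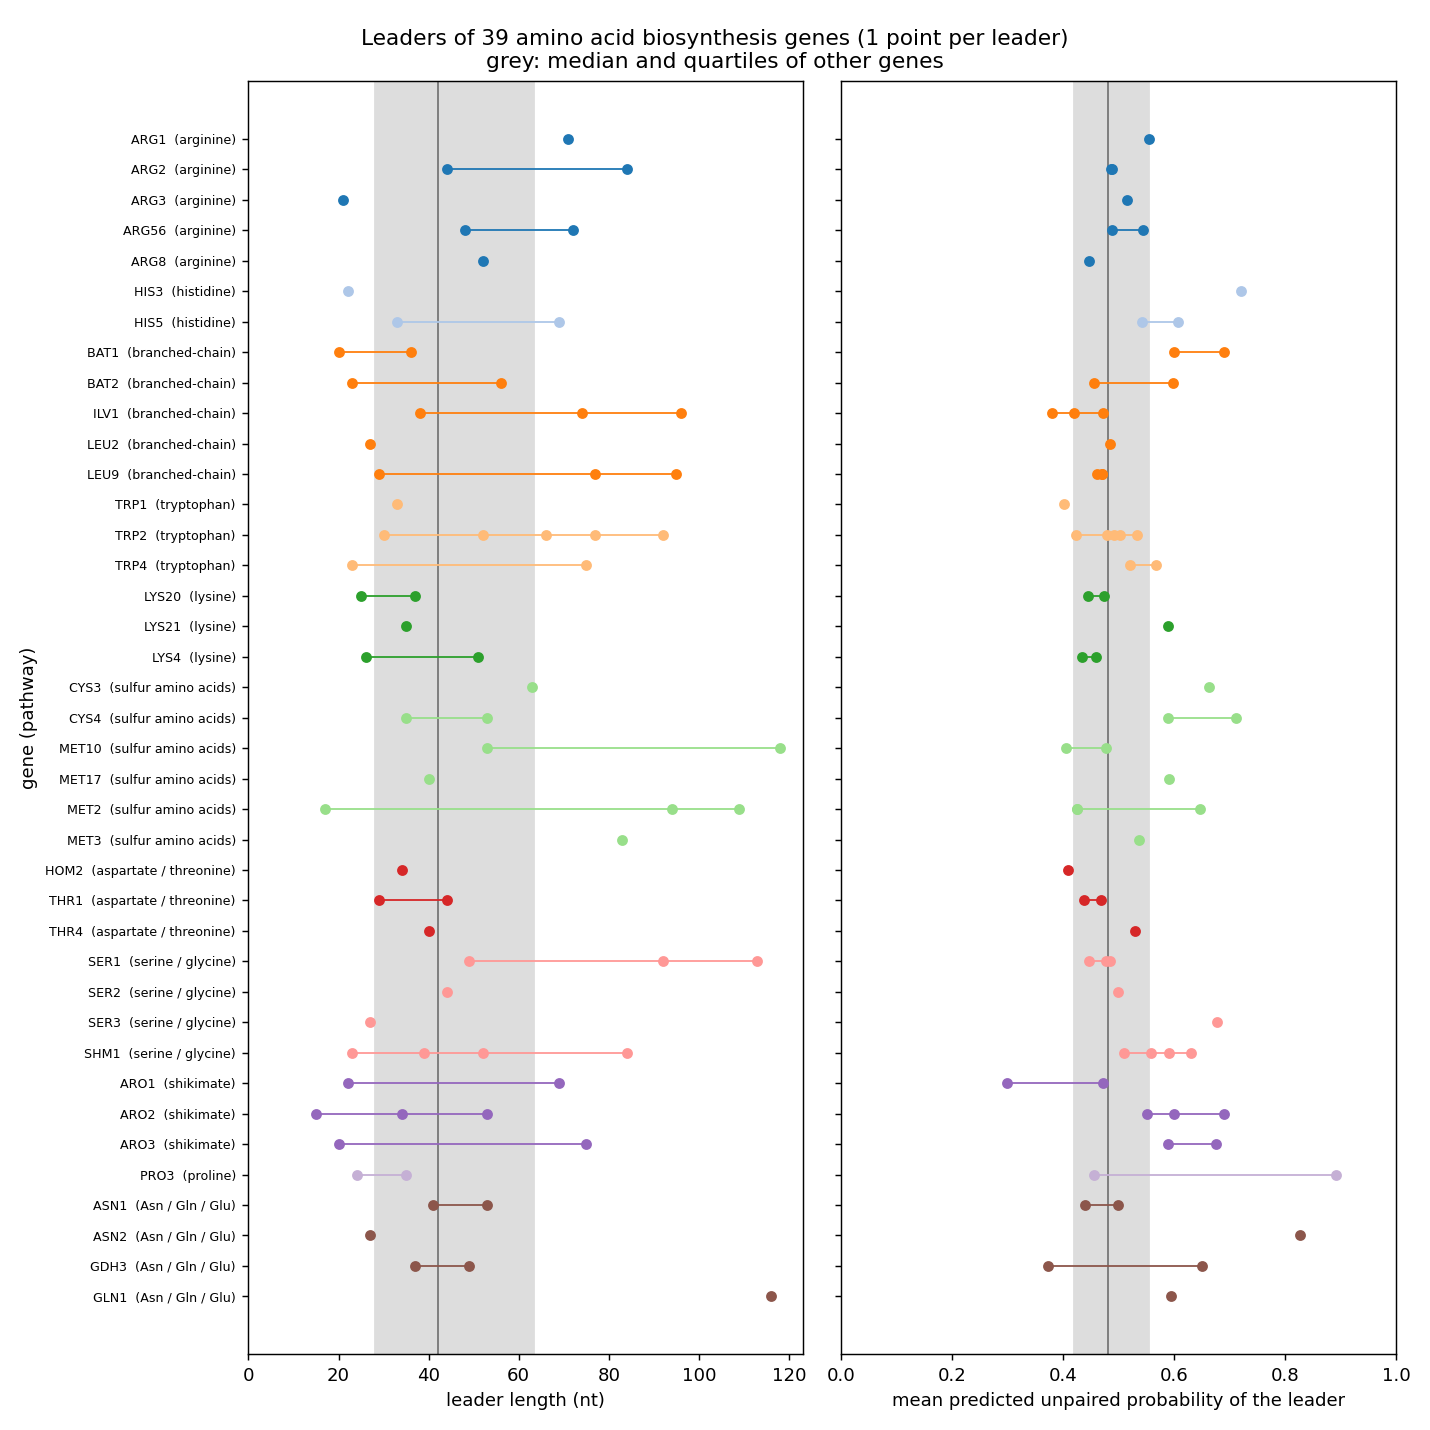
Leader length in nt (left) and mean predicted unpaired probability of the leader (right) for each of the 72 leaders of at least 10 nt, 1 row per gene, grouped and coloured by pathway, with a line joining leaders of 1 gene. Grey bands and lines give the quartiles and the median of the other genes, 28 to 63.5 nt around 42 nt and 0.419 to 0.554 around 0.480. The longest leader is that of MET10 at 118 nt, followed by GLN1 at 116 nt, and ASN2 and the shorter PRO3 leader lie highest on the right.

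Base composition of the amino acid leaders was close to that of other leaders. Medians over amino acid genes were 41.6% A, 27.5% U and 34.3% GC. Medians over the other genes were 38.8% A, 25.5% U and 35.1% GC. These differences are small beside the spread between genes, whose SDs among the 39 were 9.4, 8.6 and 6.66 percentage points. A content ran from 22.3% in LEU9 to 57.3% in GDH3 (NADP-dependent glutamate dehydrogenase, YAL062W). U content ran from 4.55% in HIS3 (imidazoleglycerol-phosphate dehydratase) to 40.7% in LEU2, and GC content from 20.6% in HOM2 (aspartate-semialdehyde dehydrogenase) to 47.5% in THR4. Genes of asparagine, glutamine and glutamate synthesis had the highest median A among pathways with more than 1 gene present (53.2%, 4 genes), and arginine genes the lowest (30.8%, 5 genes).

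The predicted unpaired probability of the leader was higher at the median in the amino acid genes than in the others when the whole pool RNA was folded, and not when the leader was folded without the coding part. This value, from 0 for always paired to 1 for always open, was averaged over the leader's bases in the predicted ensemble at 30 °C. The median was 0.516 (mean 0.538, SD 0.0971, n = 39 genes) against 0.480 (mean 0.490, SD 0.111, n = 2234 genes), and 27 of 39 genes lay above the median of all genes. Folded alone, with GGG and no coding part, the leaders had medians of 0.621 and 0.627, so that the order turned. The difference is less than the SD between genes in both settings.

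ASN2 had the highest predicted value, 0.826, at percentile 99.3 of all genes, for a 27-nt leader with 55.6% A. HIS3 followed with 0.721 for its 22-nt leader with 50% A. SER3 (YER081W) had 0.676 with 55.6% A and PRO3 (YER023W) 0.673 with 54.2% A. The PRO3 value averages 0.891 in its 24-nt leader and 0.455 in its 35-nt leader. CYS3 (cystathionine gamma-lyase, YAL012W) and CYS4 (cystathionine beta-synthase, YGR155W), which together turn homocysteine into cysteine, had 0.662 and 0.650. These 6 genes had 47.9% A or more. The lowest value was 0.385 in ARO1 (YDR127W), which encodes a pentafunctional enzyme of the shikimate pathway. The ARO1 value averages 0.299 in its 22-nt leader and 0.471 in its 69-nt leader. TRP1 (phosphoribosylanthranilate isomerase) had 0.401 and HOM2 0.409. HOM2 was low in spite of 50% A, whereas ARO1 and TRP1 had 33.4% and 33.3%.

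Across the 39 genes, A content and predicted unpaired probability had a Pearson r of 0.51, and U content and unpaired probability −0.52. Over the 2234 other genes r was 0.52 for A content and −0.35 for U content. Folding energies depend on base composition, so both measures come from the same letters and r is given as a description. A linear regression of the unpaired probability on A content, U content and length was fitted over all 2273 genes. The amino acid genes lay a median of 0.0340 above the fit, with 26 of 39 above it, and the other genes −0.00253, with 1094 of 2234 above it. The residuals ran from −0.14 in HOM2 to 0.25 in ASN2. ARO3 (a DAHP synthase of the shikimate pathway) with 0.17, HIS3 with 0.17, HIS5 (histidinol-phosphate aminotransferase) with 0.14 and SHM1 (mitochondrial serine hydroxymethyltransferase) with 0.14 followed ASN2.

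**Figure D3:**
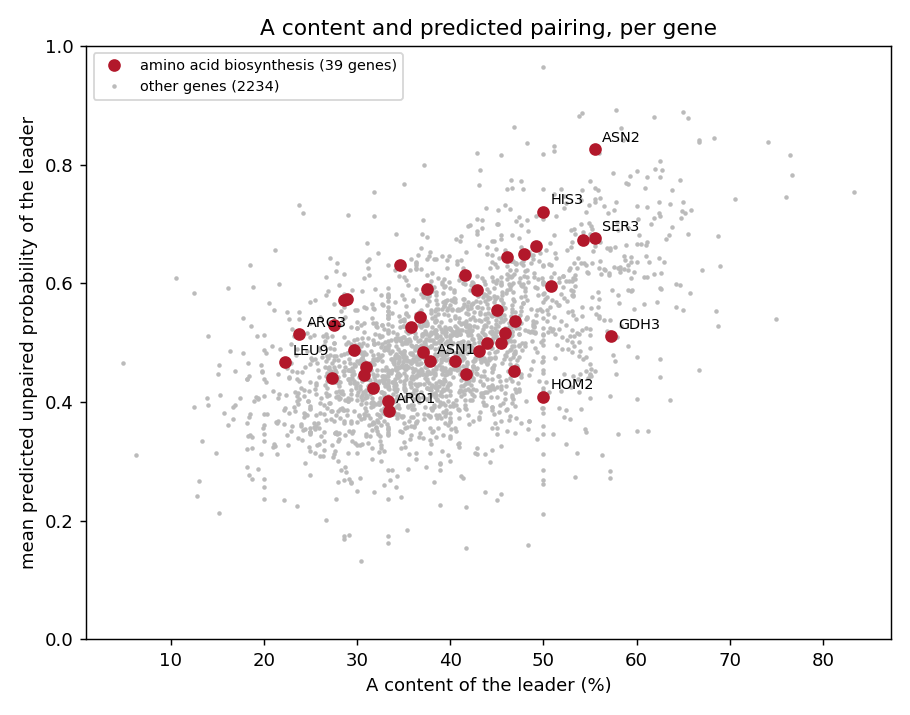
A content of the leader in percent (horizontal) against the mean predicted unpaired probability of the leader (vertical), 1 point per gene, for 39 amino acid biosynthesis genes (red) and 2234 other genes (grey). The red points lie within the grey cloud, with ASN2 highest at 0.826, and HOM2 at 0.409 and GDH3 at 0.511 low for their A contents of 50% and 57.3%. The GDH3 value averages 0.373 in its 37-nt leader and 0.649 in its 49-nt leader.

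Leader bases of the amino acid genes were predicted to pair less with the coding part, and more within the leader, than those of other genes at the median. In the whole RNA a leader base can pair within the leader, with the start codon and coding part, with the constant 20-nt stretch at the 3′ end or with the GGG at the 5′ end. The mean probability of pairing with the coding part had a median of 0.139 in the amino acid genes (SD 0.101) and 0.199 in the others (SD 0.159), and 10 of 39 genes lay above the median of all genes. Pairing within the leader had medians of 0.237 and 0.174, with 24 of 39 above. The lower quartile of leader length was 34 nt in the amino acid genes and 28 nt in the others. The partner measures were not compared at equal leader length. Pairing with the constant stretch, which exists in the pool RNA alone, had medians of 0.0537 and 0.0507. The leader paired more within itself than with the coding part in 23 of the 39 genes (59.0%, 95% Wilson interval 43.4 to 72.9), against 1044 of the 2234 others (46.7%) and 46.9% of all genes.

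TRP1 had the highest pairing with the coding part, 0.366, and THR4 the lowest, 0.00338. LYS4 (homoaconitase) had the highest pairing within the leader, 0.434. THR4 had the highest pairing with the constant stretch, 0.213, so its value of 0.529 for the unpaired share rests in part on bases that its natural mRNA does not have.

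**Figure D4:**
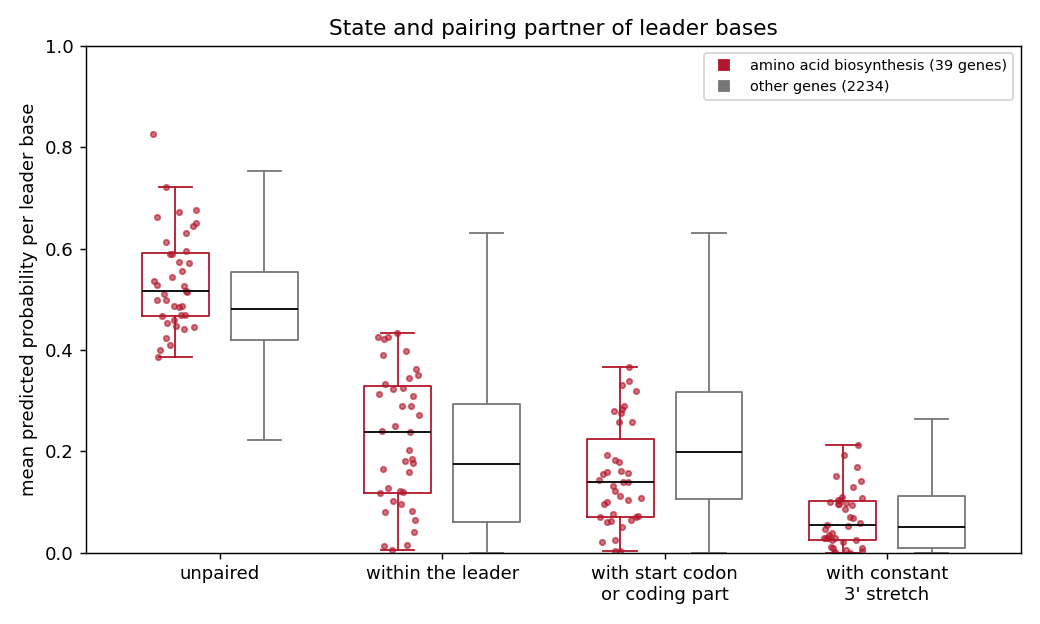
Mean predicted probability per leader base of being unpaired, or of pairing within the leader, with the start codon or coding part, or with the constant 3′ stretch. Boxes give quartiles and medians over 39 amino acid biosynthesis genes (red, with 1 point per gene) and 2234 other genes (grey), whiskers reach the last gene within 1.5 box heights, and outlying grey genes are not drawn. The red median lies below the grey for pairing with the coding part (0.139 against 0.199).

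Around the start codon the amino acid leaders were predicted to be more open just before it, and not at it. The last 10 nt of the leader had a median unpaired probability of 0.632 in the amino acid genes (SD 0.186, n = 39) and 0.514 in the others (SD 0.186, n = 2234), with 28 of 39 above the median of all genes. The lowest value was 0.196 in HOM2 and the highest 0.901 in CYS4. The difference in medians was less than the SD between genes in both sets. The start codon itself had medians of 0.411 and 0.406, and the 10 nt after it 0.461 and 0.434. A window of the start codon and the 10 nt flanking it upstream and downstream had medians of 0.508 and 0.475, with ARO1 lowest (0.285) and HIS3 highest (0.752). Among the 28 amino acid genes whose leaders reached 40 nt, the medians were 0.487, 0.510, 0.505 and 0.608 in successive 10-nt windows from 40 nt to 1 nt before the start codon. In the 1477 other genes with such leaders they were 0.471, 0.497, 0.497 and 0.503.

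Start codons predicted to be almost fully paired were found beside open ones. The start codon had an unpaired probability of 0.0334 in ARG1 (YOL058W), 0.0520 in SER2, 0.0821 in SER3, 0.119 in SER1 (phosphoserine aminotransferase) and 0.133 in LEU9. The gene average was thus low in the 3 genes that lead from phosphoglycerate to serine, while the leader of SER3 as a whole was among the most open. The SER1 value averages 0.329 in its 49-nt leader, 0.0155 in its 92-nt leader and 0.0138 in its 113-nt leader. The highest values were 0.742 in PRO3, 0.669 in GLN1 and 0.669 in SHM1. A value above 0.5 was found in 14 of 39 genes (35.9%), against 34.7% of all genes.

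Hairpins that lie wholly within a leader were predicted in 25 of the 39 amino acid genes (64.1%), against 56.5% of all genes, counting hairpins of at least 4 base pairs and at most 30 nt in the minimum energy structure. A hairpin of −5 kcal/mol or lower, folded alone at 30 °C, was found in 5 of 39 genes (12.8%), against 14.8% of all genes. The 5 genes were LEU9, SER1, HIS5, MET10 and SHM1. Their strongest hairpins are printed with paired bases in capitals, together with those of LYS4 and the shortest ILV1 leader, as examples that end 1 nt and 0 nt before the start codon.
LEU9: CTATCGGCacattatcatttaGCCGcGTAG
SER1: AATtaGTTGATCaatcatcGATTAACcATT
HIS5: GTttcCTGCTaaaccAGCAGtAC
MET10: GAGGGCagtaGTTCTC
SHM1: GCCaTCgCCtcttGGaGAaGaGC
LYS4: TTGcAAGGAaACAaaatTGTaTCgCTTCAA
ILV1: TtaaACTAAgTcaattacacaaAgTTAGTG

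The LEU9 hairpin had the lowest energy, −7.65 kcal/mol, with 8 base pairs ending 2 nt before the start codon. It was present in the 2 longer LEU9 leaders of 77 and 95 nt, while the 29-nt leader starts within it. The SER1 hairpin, −6.81 kcal/mol with 10 base pairs ending 14 nt before the start codon, was predicted in all 3 SER1 leaders of 49, 92 and 113 nt, with a mean pairing probability of its paired bases between 0.813 and 0.856. The HIS5 hairpin had −6.17 kcal/mol and lay 29 nt before the start codon of the 69-nt leader. The MET10 hairpin (−6.15 kcal/mol) and the SHM1 hairpin (−5.44 kcal/mol) lay 99 and 58 nt away, in the longest leader of each gene. Weaker hairpins ended 1 nt before the start codon in the 51-nt leader of LYS4 (−4.53 kcal/mol) and 0 nt before it in the 118-nt leader of MET10 (−3.49 kcal/mol), the 69-nt leader of ARO1 (−3.03 kcal/mol) and the 38-nt leader of ILV1 (−2.25 kcal/mol). The start codon next to these hairpins had an unpaired probability of 0.662 in LYS4, 0.611 in MET10, 0.483 in ARO1 and 0.0155 in ILV1, so a hairpin that reached the start codon was found with open and with paired start codons.

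Upstream AUGs, which the pool's wild-type leaders carry as AGT, were found in 2 of the 39 amino acid genes, MET10 and THR1 (homoserine kinase, YHR025W). That is 5.13% (95% Wilson interval 1.42 to 16.9) against 353 of 2234 other genes (15.8%, 14.3 to 17.4) and 15.6% of all genes. The sites are printed with the replaced codon in capitals.
MET10: agtttcgtttagAGTgggtgcacatag
THR1: AGTgttataacagta

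In MET10 (YFR030W) the replaced codon began 61 nt before the start codon in the 118-nt leader, out of its frame, with U at the third base before it. With AUG restored its reading frame would hold 4 codons and end 46 nt before the start codon. In THR1 the replaced codon formed the first 3 nt of the 44-nt leader, out of frame with the start codon. Its frame would hold 6 codons and end 23 nt before the start codon. Both genes also had a shorter leader without the codon, of 53 nt in MET10 and 29 nt in THR1. The pool held 1 variant of each gene with the upstream AUG kept, 2 RNAs in all.

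Runs of at least 6 U were found in 3 of the 39 genes (7.69%, 95% Wilson interval 2.65 to 20.3), against 5.68% of the other genes and 5.72% of all genes. With runs of at least 5 U the order turned, to 10.3% against 13.1%. The 3 runs, each of 7 U, are printed in capitals.
MET10: gtgcacatagTTTTTTTcaactgcttt
MET2: tcttcgataaTTTTTTTagtcacaggg
ARG8: actgcgaacaTTTTTTTcgtttgttag

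The 3 runs lay in different predicted structures. In ARG8 (acetylornithine aminotransferase, YOL140W) the run ended 35 nt before the start codon and had an unpaired probability of 0.877, in the loop of a hairpin. In MET10 it ended 39 nt before the start codon, with 0.566 in the 118-nt and 0.682 in the 53-nt leader. In MET2 (YNL277W) it ended 75 nt before the start codon and was predicted to be paired, with 0.0208 in the 109-nt and 0.0922 in the 94-nt leader. A run of at least 8 A was found in CYS3 alone of the 39 genes (2.56%), against 3.74% of all genes.

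Alternative leaders that differ in their 5′ end were present for 23 of the 39 amino acid genes (59.0%, 95% Wilson interval 43.4 to 72.9) and 52.4% of all genes, counting leaders of at least 10 nt. TRP2 (YER090W) had 5, of 30, 52, 66, 77 and 92 nt, and SHM1 (YBR263W) had 4, of 23, 39, 52 and 84 nt. In all 23 genes the shortest leader was the 3′ part of the longest. The longest exceeded the shortest by a median of 38 nt, from 11 nt in PRO3 to 92 nt in MET2, against 27 nt in the 1169 other genes with more than 1 leader. The insert has a fixed length of 159 nt, so a longer leader comes with less coding sequence, and the effects of the 2 changes cannot be told apart.

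The bases that both leaders share had on balance the same predicted unpaired probability in the longest and the shortest leader. The median difference, longest minus shortest, was 0.000161 over 23 genes, with 12 above 0, against 0.0140 over the 1169 other genes, with 680 above 0. A difference of more than 0.2 was found in 4 of 23 genes (17.4%), against 9.73% of all genes with more than 1 leader. Folded at 37 °C, 3 of 23 genes passed this limit, against 117 of the 1169 other genes. In PRO3 the shared 24 nt had 0.577 in the 35-nt leader and 0.891 in the 24-nt leader. In MET2 the shared 17 nt had 0.397 in the 109-nt leader and 0.647 in the 17-nt leader. In BAT2 the shared 23 nt had 0.396 in the 56-nt leader and 0.598 in the 23-nt leader. GDH3 went the other way, with 0.697 in the 49-nt leader and 0.373 in the 37-nt leader. PRO3 and GDH3 thus had opposite differences although their leaders gain 11 and 12 nt.

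Averaged over the whole leader, the main pairing partner differed between the longest and shortest leader in PRO3, GDH3 and MET2. It also differed in genes with a shared-base difference below 0.2, such as TRP2 and ARO1. Pairing with the coding part was 0.166 in the longest TRP2 leader and 0.568 in the shortest, and pairing within the leader 0.261 and 0.00083. In ARO1 these values were 0.0128 and 0.647, and 0.345 and 0.00719. Such a change was thus not particular to genes over the limit, and genes with it were not counted. In PRO3 the mean probability of pairing with the coding part was 0.545 in the longer leader and 0.0142 in the shorter. The shorter PRO3 leader was mostly unpaired (0.891), and its highest partner value was 0.0657, with the GGG. In GDH3 pairing with the coding part was 0.104 in the longer leader and 0.532 in the shorter. Pairing within the longer GDH3 leader was 0.154, so its main partner was only a little ahead. In MET2 pairing within the leader was 0.417 in the longest leader and 0.0134 in the shortest, and pairing with the coding part 0.0880 and 0.337. In BAT2 the main partner was the leader itself in both, with 0.387 in the longer leader and 0.315 in the shorter.

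The SD of the difference over the 23 genes was 0.215 for the start codon and 0.131 for the shared bases. A difference of more than 0.3 was found in 5 of 23 genes (21.7%), against 17.4% of all genes with more than 1 leader. In ARO1 the start codon had 0.483 in the 69-nt leader and 0.0499 in the 22-nt leader. In ILV1 (YER086W) it had 0.432 in the 96-nt leader and 0.0155 in the 38-nt leader. In MET10 it had 0.611 in the 118-nt leader and 0.248 in the 53-nt leader. LYS4 had 0.662 and 0.361 in its leaders of 51 and 26 nt. SER1 was the 1 gene of the 5 in which the start codon was more paired with the longest leader, at 0.0138 with 113 nt and 0.329 with 49 nt. This count depends on the limit, which LYS4 passed with a difference of 0.301. BAT2 (−0.298) and TRP4 (−0.280) fell short of it and went the same way as SER1. Over all 23 genes the difference, longest minus shortest, was above 0 in 15.

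**Figure D5:**
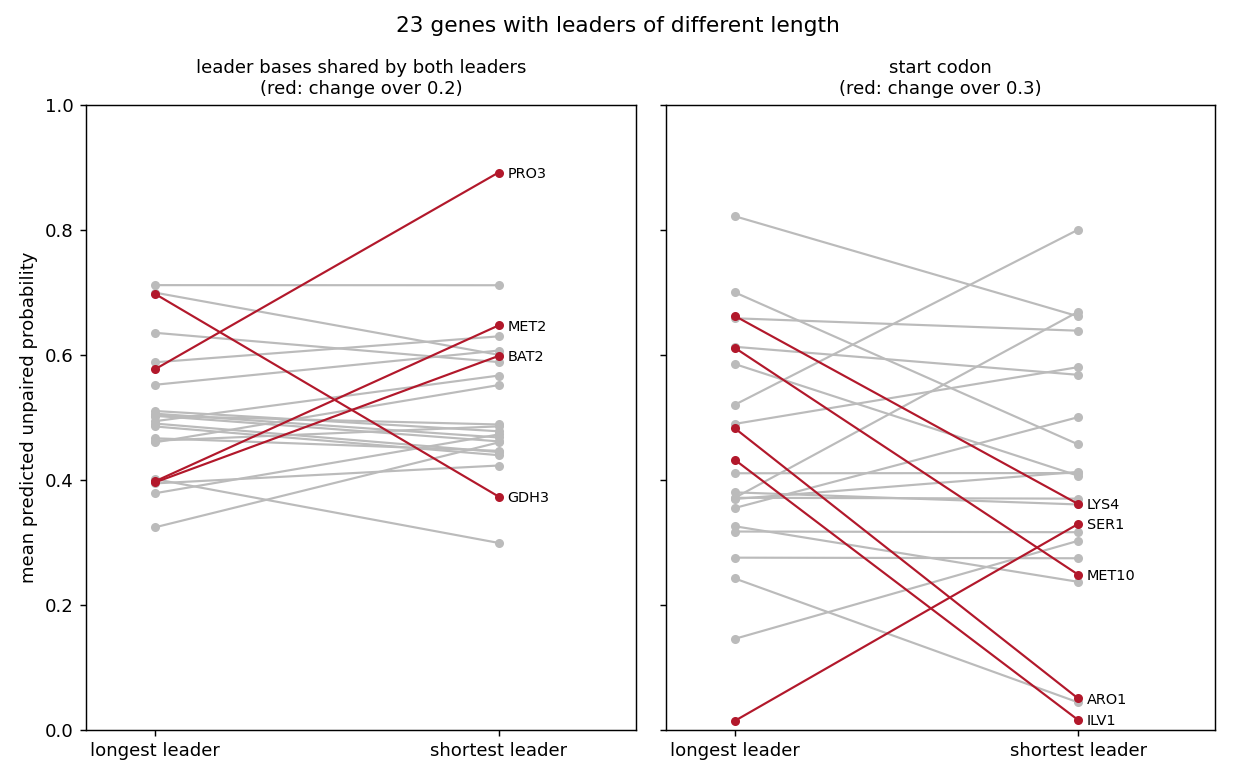
Mean predicted unpaired probability in the RNA with the longest leader (left point) and with the shortest leader (right point) of 23 amino acid biosynthesis genes, for the leader bases both share (left panel) and for the start codon (right panel). Lines join values of 1 gene, and genes with a difference over 0.2 (left panel) or 0.3 (right panel) are red and named. PRO3, MET2 and BAT2 are more open in the shortest leader and GDH3 in the longest.

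Leaders of duplicated genes that encode the same step were set side by side. For 3 such pairs both genes were present: ASN1 and ASN2 for asparagine synthetase, LYS20 and LYS21 for homocitrate synthase, and BAT1 and BAT2 for the branched-chain aminotransferases. Their start codon windows are printed as above, without an alignment.
ASN1: ataaatcggacgtaacttAagATGtgtggt
ASN2: aaatactcactacaatacAatATGtgtggt
LYS20: ccctgtattgttttcctaAagATGactgct
LYS21: aattgtatactttaacaaAccATGtctgaa
BAT1: agaaccttagcatactaaAacATGttgcag
BAT2: tccacgagttttaagaacGatATGaccttg

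ASN1 (YPR145W) had leaders of 41 and 53 nt, averaging 37.8% A, and ASN2 1 leader of 27 nt with 55.6% A. The predicted unpaired probability was 0.469 in ASN1 and 0.826 in ASN2, a difference of −0.36. ASN1 leaders paired within themselves with a probability of 0.421, against 0.0139 in ASN2. The means over the start codon window were close, at 0.523 and 0.481, but its parts were not. The last 10 nt before the start codon had 0.575 in ASN1 and 0.871 in ASN2. The 10 nt after the start codon had 0.468 in ASN1 and 0.0909 in ASN2, the lowest of the 39 genes.

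LYS20 (YDL182W) averaged 31 nt, 30.9% A and an unpaired probability of 0.458, against 35 nt, 42.9% A and 0.589 in LYS21 (YDL131W), a difference of −0.13. Around the start codon the values were 0.476 and 0.688. BAT1 (YHR208W) averaged 28 nt, 46.1% A and 0.644, against 39.5 nt, 35.8% A and 0.527 in BAT2 (YJR148W), a difference of 0.12. Around the start codon they had 0.599 and 0.376. The BAT1 and BAT2 difference depended on the leader, with 0.689 and 0.456 in the longest leaders and 0.600 and 0.598 in the shortest. With 1 average per gene these differences have no error. The SD of the unpaired probability between the 39 genes was 0.0971. Pairs of unrelated genes were not compared, so whether these differences exceed those of any 2 genes was not tested.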

How the data were processed

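The authors deposited a single series table that lists every pool RNA base by base. The columns read were the RNA name and the reference base, a letter. Per the submitters' processing notes, STAR and SAMtools were used, with no version stated. The genome build is not given in the sources used here. None of the 6 value columns names a condition, and all were left unused.

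Bases were joined in file order. The leader was taken from the base after GGG to the lower-case ATG. Symbols came from the RefSeq gene table (assembly R64). Each complete RNA was folded with ViennaRNA 2.7.2 at 30 °C, without reactivity data or protein, and the unpaired probability was 1 minus the summed pair probabilities. Leaders of 1 gene were averaged. Medians, counts and 95% Wilson intervals describe the genes, and no test was made. Parsing and folding were tested on simulated RNAs. The members, pathways and lists were chosen with earlier results of these data known. Any listed gene could be named, with the highest and lowest for each feature. The hairpin, partner and window measures, the −5 kcal/mol limit and the differences over 0.2 and 0.3 were set after values had been seen. Alternatives were other leader choices, leaders of at least 20 nt, Watson-strand genes alone, 37 °C, no coding part, restored upstream AUGs, a window of 5 nt and runs of at least 5 U.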

Additional observations from a re-analysis of the deposited data

How the results depend on the processing

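Of 48 alternative values for 13 results, 45 kept the direction of the difference between amino acid genes and other genes, or between paired leaders. They also moved by less than a limit, the SD between genes or, for shares, a value set by the width of the Wilson interval. Most main differences were themselves below this limit, so a difference that shrank almost to nothing would also pass. The difference in U content, for one, was 2.04 percentage points and fell to 0.687 with the longest leader. The other 3 turned. The difference in median leader length (amino acid genes minus others) was −2.83 nt with leaders of at least 20 nt, where fewer short leaders of other genes remain. The difference in unpaired probability was −0.00606 with the leader folded without the coding part, and that in the share with a U run was −2.81 percentage points with runs of at least 5 U; the cause was not tested for either. The analysis without a length minimum was chosen after seeing the data and turned none of its 5 results. No paired analysis was possible because the value columns give no condition and no library entered a comparison. Depth does not limit these values, which come from sequences. Predictions made without protein or reactivity data limit them, and the table holds mostly Watson-strand genes.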

Other observations

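The codon after the start codon held threonine in 9 of the 39 amino acid genes (23.1%), against 155 of 2214 other genes. Serine was found in 11 of 39 genes (28.2%) and in 26.4% of the others. Proline followed the start codon in 5 of 39 genes (12.8%) and in 4.25% of the others, and alanine in 2 of 39 (5.13%) and in 8.85%. The middle base of this codon was C in 27 of 39 amino acid genes (69.2%), against 38.7% of the others, and A in none of the 39 (0%), against 24.5%. These shares were looked at after the leaders had been described and were not tested.

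Of 45 further genes of amino acid synthesis outside the list, 3 had wild-type RNAs, 6 in all, and 5 more were present as variants alone. AAT1, the mitochondrial aspartate aminotransferase gene, had leaders of 62, 99 and 111 nt with unpaired probabilities of 0.431, 0.405 and 0.463, and U at position −3. ARO9, an aromatic aminotransferase gene induced by aromatic amino acids, had 1 leader of 29 nt with 0.637 and also U at this position. CPA1, which encodes a subunit of carbamoyl phosphate synthetase, had leaders of 75 and 108 nt with 0.569 and 0.682 and C at this position. None of these 3 genes had A or G there, unlike 37 of the 39 listed genes.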
